A study of Mus musculus with 84 samples.

Results

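Fos, Fosb, Fosl1, Fosl2, Jun, Junb, Jund, Atf3 and Batf encode basic leucine zipper transcription factors: the FOS and JUN subunits of AP-1, the related BATF and the stress factor ATF3. They were taken by gene symbol from the 25494 genes of an RNA-seq count table of mouse colon, and all 9 had enough reads to be tested among 15893 genes. Peaks of acetylated histone H3 lysine 27 (H3K27ac, a mark of active promoters and enhancers), monomethylated lysine 4 (H3K4me1, a mark of enhancers) and the nuclear receptor HNF4a were then taken from the locus of each gene extended by 10 kb on both sides.

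AP-1 is a dimer. The FOS proteins (FOS, FOSB, FOSL1, FOSL2) bind DNA only with a JUN partner, whereas JUN, JUNB and JUND can also pair among themselves, and BATF takes the place of FOS in lymphocytes. Fos, Fosb, Jun, Junb and Atf3 are immediate early genes, which are transcribed without new protein synthesis when growth factors, cytokines or stress activate MAP kinases, while Jund is produced steadily in most cells. In gut epithelium AP-1 is known downstream of EGF receptor and JNK signaling, and ATF3 is induced by amino acid shortage, endoplasmic reticulum stress and Toll-like receptor ligands, where it often represses.

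All animals were C57BL/6 mice, and the labels name no transgene or deleted gene. RNA came from germ-free male recipients that ate a high-fat diet (HFD, 60% of energy from fat) or a low-fat diet (LFD, 10%) and were gavaged from 6 weeks of age for 5 weeks with stool bacteria of male donors on one of these diets (HFB from HFD donors, LFB from LFD donors), which gave the groups HFDHFB, HFDLFB, LFDHFB and LFDLFB with 3 libraries each. H3K27ac was mapped in the same 4 kinds of recipients (2 libraries in HFDHFB, 3 in each other group), and H3K27ac and H3K4me1 in conventionally raised males and females kept on HFD or LFD for up to 20 weeks from 6 weeks of age, with 3 libraries per sex, diet and mark. The HNF4a libraries analysed here came from conventional males, with 2 per diet. By the paper's methods, recipient RNA came from cells scraped from colon tissue, whereas ChIP used isolated colon epithelial cells. The recipients were gavaged with stool suspensions, so the groups differ by donor community and not by a defined bacterium. Nothing in the labels tells whether libraries were single animals, and p-values measure the spread between libraries.

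RNA libraries held 39904191 to 48026846 counted reads, and the 39 peak lists held 38317 to 51873 peaks for H3K27ac, 71853 to 79511 for H3K4me1 and 21308 to 27766 for HNF4a. The epithelial marker Epcam ranged from 1568 to 2249 CPM (the reads of a gene relative to all counted reads of a library) over the RNA libraries, while the leukocyte marker Ptprc ranged from 10.5 to 21.4 CPM. Fat, serosal and smooth muscle markers differed by library. For 8 smooth muscle genes the summed level ran from 1081 CPM in HFDLFB library 3 to 6976 CPM in HFDHFB library 3. The summed level of 8 mesothelial genes was 599 and 702 CPM in HFDLFB libraries 1 and 2 and 181 to 372 CPM in the 10 others, and that of 8 adipocyte genes was 1289 and 2989 CPM there against 179 to 1070 CPM elsewhere. In such bulk RNA, fewer cells of a type and less RNA per cell cannot be told apart.

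The promoters of the inducible genes are known for cAMP response elements, where CREB, ATF and JUN dimers bind. The 250 bases before the start of each gene were read from RefSeq on build GRCm38.p6, where 8 of the 9 genes had an entry (Fosl1 did not). The core TGACG, searched on both strands, stood in 5 of these 8 promoters and in 17.8% of 32851 promoters of the same length. Of the promoters with TGACG, those of Fos, Fosb, Junb and Atf3 are shown and that of Batf is not. The promoter of Jun, without TGACG, is shown for the Jun element TGACATCA. Capitals mark TGACG on either strand, the Jun element and the TATA box TATAAA.
Fos promoter, chr12:85473640-85473889, plus strand: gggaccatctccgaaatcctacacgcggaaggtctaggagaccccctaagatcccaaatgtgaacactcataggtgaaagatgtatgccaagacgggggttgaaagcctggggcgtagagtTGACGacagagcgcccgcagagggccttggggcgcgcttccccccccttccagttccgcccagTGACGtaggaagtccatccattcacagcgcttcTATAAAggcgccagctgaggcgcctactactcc
Fosb promoter, chr7:19310046-19310295, minus strand: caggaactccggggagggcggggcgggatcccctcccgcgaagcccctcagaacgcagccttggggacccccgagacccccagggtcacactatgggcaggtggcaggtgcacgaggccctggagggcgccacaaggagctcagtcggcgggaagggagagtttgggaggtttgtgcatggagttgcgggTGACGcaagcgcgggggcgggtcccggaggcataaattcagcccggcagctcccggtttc
Junb promoter, chr8:84978749-84978998, minus strand: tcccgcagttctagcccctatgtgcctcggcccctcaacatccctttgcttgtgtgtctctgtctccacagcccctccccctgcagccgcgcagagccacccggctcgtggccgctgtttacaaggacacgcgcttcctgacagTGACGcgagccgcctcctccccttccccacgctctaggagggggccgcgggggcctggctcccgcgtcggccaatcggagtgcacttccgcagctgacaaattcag
Atf3 promoter, chr1:191183334-191183583, minus strand: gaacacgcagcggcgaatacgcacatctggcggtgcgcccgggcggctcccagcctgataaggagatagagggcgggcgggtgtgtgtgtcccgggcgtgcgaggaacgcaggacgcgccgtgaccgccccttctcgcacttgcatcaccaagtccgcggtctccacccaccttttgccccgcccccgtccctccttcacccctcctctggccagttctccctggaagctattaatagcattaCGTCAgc
Jun promoter, chr4:95052223-95052472, minus strand: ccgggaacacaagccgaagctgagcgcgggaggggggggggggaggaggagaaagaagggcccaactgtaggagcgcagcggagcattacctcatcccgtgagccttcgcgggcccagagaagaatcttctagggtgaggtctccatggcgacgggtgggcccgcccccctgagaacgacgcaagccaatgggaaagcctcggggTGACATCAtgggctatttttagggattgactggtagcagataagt
Counting back from the gene start, TGACG began at -129 and -66 in Fos, at -60 in Fosb, at -106 in Junb, at -98 in Batf and at -7 on the other strand in Atf3. TGACATCA, the variant known from the Jun promoter, began at -45 in Jun and stood in 2.93% of all promoters. Fos alone of the 8 held TATAAA, at -33, which 12.4% of promoters hold. The AP-1 site TGANTCA stood in none of the 8 windows and in 6.75% of all, the full element TGACGTCA in none and in 1.55%, and the CArG box, the serum response element core, in none and in 1.47%. The GC box GGGCGG, which shares no bases with these cores, stood in 6 of 8 (all but Junb and Jund) and in 32.7% of all promoters. Each match describes letters within these windows only.

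To see which AP-1 subunits the colon samples contained, levels were divided by exonic length (CPM per kb). Jund was the most abundant, with a mean of 90.7 ± 19.7 CPM per kb (SD over 12 libraries), and stood above Junb in 12 of 12 libraries. Junb (56.8 ± 14.7) and Fosl2 (54.8 ± 11.3) could not be ordered, since Junb was the higher in 7 of 12 libraries. Fos followed with 43.0 ± 13.1 CPM per kb, Jun with 29.6 ± 5.88 and Atf3 with 21.5 ± 7.89. Fosl2 stood above Fos in 10 of 12 libraries, Fos above Jun in 11 and Jun above Atf3 in 10, although the ranges of these neighbours overlapped. Fosl2 was thus the leading FOS subunit per length and Jund the leading JUN subunit.

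A gap separated these 6 genes from the others. The lowest Atf3 library (10.3 CPM per kb) lay above the highest Fosb library (2.63), and Fosb averaged 1.09 ± 0.771 CPM per kb. Batf averaged 0.720 ± 0.324 and Fosl1 0.490 ± 0.375 CPM per kb. Batf had only 11 to 53 reads per library and Fosl1 6 to 116, so that their fold changes are imprecise. Fosl1 also overlaps Ccdc85b on chromosome 19, and whether counting used strand is not given in the sources used here, so its reads are uncertain.

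**Figure D1:**
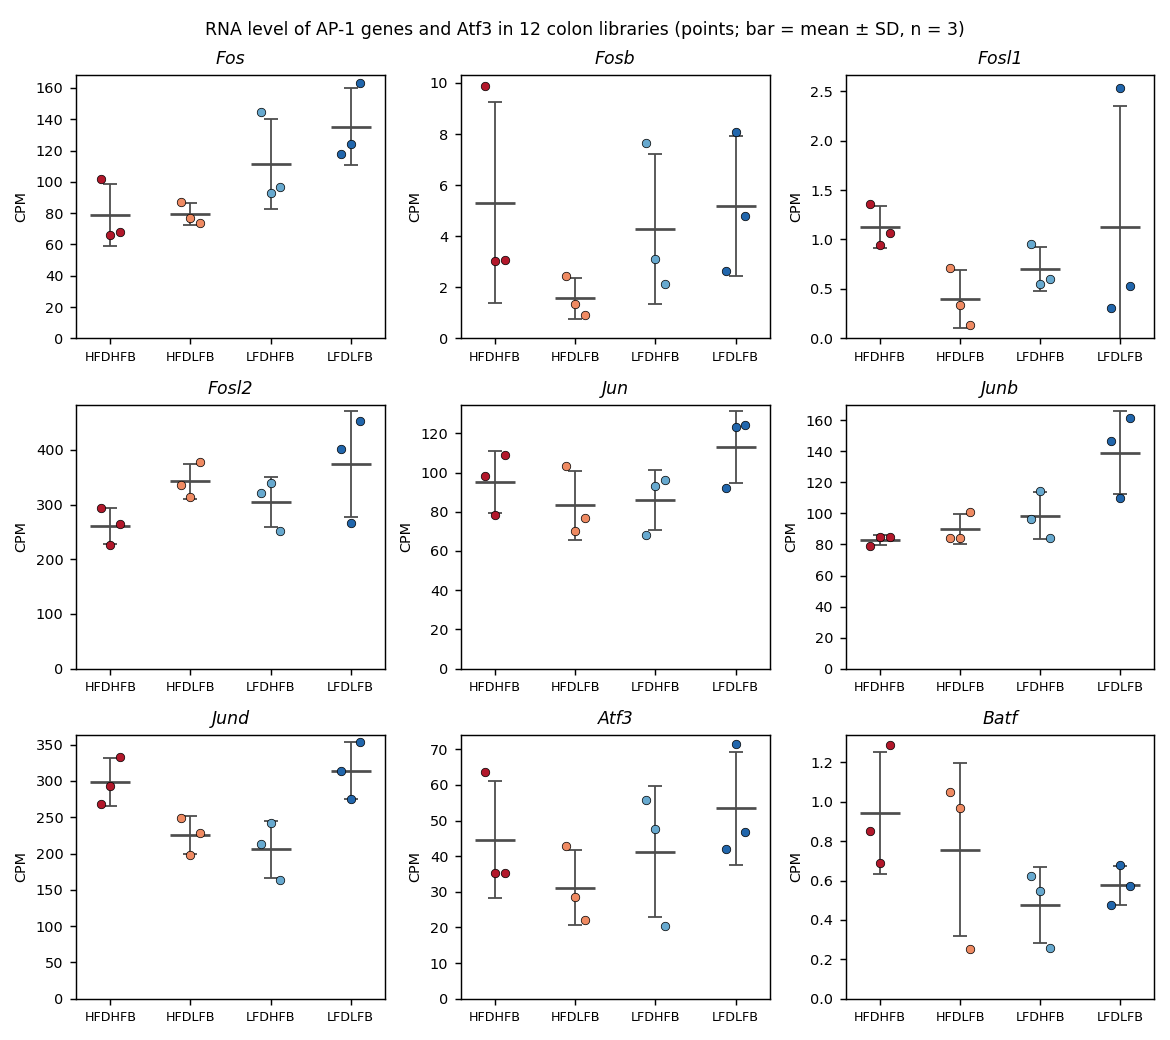
RNA level in CPM (vertical axis, from 0) of each of the 9 genes in the 4 recipient groups; points are libraries and bars give the mean ± SD (n = 3), with the lower bar of Fosl1 in LFDLFB cut at 0. Jund lay between 268 and 333 CPM in HFDHFB and between 275 and 354 CPM in LFDLFB, above every library of HFDLFB and LFDHFB.

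To test whether the donor bacteria changed these genes on the high-fat diet, HFDHFB was compared with HFDLFB. Jund, the constitutive JUN, had 268, 293 and 333 CPM in the HFDHFB libraries and 249, 198 and 228 CPM in the HFDLFB libraries. The groups did not overlap, with a log2 fold change of 0.40 (SE 0.17, adjusted p = 0.517, edgeR). Fosb, an immediate early FOS subunit, had 9.87, 3.01 and 3.06 CPM in HFDHFB against 2.44, 1.35 and 0.896 CPM in HFDLFB. Every HFDHFB library was the higher, but HFDHFB library 1 stood at about 3 times the other two, and the log2 fold change of 1.76 (SE 0.66, adjusted p = 0.5) came to 0.96 without it.

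Fosl1, a FOS subunit of migrating and transformed epithelium, also did not overlap, with 1.36, 0.947 and 1.07 CPM in HFDHFB and 0.716, 0.339 and 0.138 CPM in HFDLFB. Fosl2 lay the other way, with 293, 227 and 264 CPM in HFDHFB below 335, 314 and 378 CPM in HFDLFB (log2 fold change -0.39, SE 0.20, adjusted p = 0.582 by edgeR). The remaining 5 genes overlapped between donors. Thus 4 of 9 genes did not overlap, 3 higher and 1 lower in HFDHFB, where 13.0% of all tested genes did not (8.11% higher, 4.9% lower). By edgeR 0 of 9 genes and 0 of 15893 genes (0.0%) passed an adjusted p of 0.05. Unadjusted p below 0.05 was reached by 2 of 9 genes (Fosb and Jund, both with positive estimates) and by 9.07% of all (4.85% positive), and DESeq2 called 0 of 9 and 80 of all genes.

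HFDLFB libraries 1 and 2 were the ones rich in mesothelial and adipocyte RNA. HFDLFB library 3, with the lowest mesothelial and adipocyte sums of its group (238 and 529 CPM, both within the range of HFDHFB), had the lowest Fosb and Fosl1 of all 12 libraries, and its Jund of 228 CPM lay below every HFDHFB library. Its Fosl2 of 378 CPM was the highest of the group. The goblet cell genes Muc2 and Spink4 had log2 fold changes of 1.47 and 0.86 in the same comparison. Of 7 measured goblet markers 4 had an unadjusted p below 0.05 (edgeR), against 9.07% of all genes. All 8 markers of proliferating cells and all 8 of smooth muscle had positive estimates there, with medians of 0.81 and 0.77. Their part in the result was not tested.

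On the low-fat diet, LFDHFB was compared with LFDLFB. Jund had 213, 241 and 164 CPM in LFDHFB and 314, 275 and 354 CPM in LFDLFB. The groups did not overlap, and the log2 fold change was -0.61 (SE 0.17, adjusted p = 0.975, edgeR), which is the direction opposite to that on the high-fat diet. Junb, an inducible JUN that restrains proliferation in many cells, had 96.4, 115 and 84.4 CPM in LFDHFB and 147, 110 and 161 CPM in LFDLFB, with 1 LFDHFB library above the lowest LFDLFB library and a log2 fold change of -0.50 (SE 0.16). All 9 estimates lay below 0, with a median of -0.37 against 0.02 over all genes.

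Only Jund (1 of 9) did not overlap between donors on the low-fat diet, against 10.8% of all genes (5.57% lower in LFDHFB). Again edgeR passed 0 of 9 and 0 of 15893 genes (0.0%), unadjusted p was below 0.05 for 2 of 9 (Junb and Jund, both lower) and 3.72% of all (1.72% lower), and DESeq2 called 0 genes. The lowest Jund library, LFDHFB 3, also had one of the 2 lowest epithelial marker sums (10627 CPM, where the LFDLFB libraries had 14353 to 14799 CPM). The leukocyte marker Ptprc was higher in every LFDHFB library (log2 fold change 0.53), but only 5 of 8 leukocyte markers had positive estimates. The summed level of these 8 overlapped, at 150 to 339 CPM in LFDHFB and 167 to 394 CPM in LFDLFB. The goblet marker Spink4 was lower in every LFDHFB library (-0.57). The part of these cell types in the Jund values was not tested. Without any 1 library of these groups the Jund estimate stayed between -0.71 and -0.47.

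To compare the diets at a fixed donor, HFDHFB was set against LFDHFB. Fos, the archetypal immediate early gene, had 102, 66.3 and 68.2 CPM in HFDHFB and 144, 92.8 and 96.4 CPM in LFDHFB. These overlapped only through HFDHFB library 1, and the log2 fold change was -0.50 (SE 0.22, adjusted p = 0.641, edgeR). Jund was higher in every HFDHFB library (268 to 333 CPM against 164 to 241 CPM), with a log2 fold change of 0.53 (SE 0.17, adjusted p = 0.438, edgeR). Batf, best known in lymphocytes, had 0.852, 0.689 and 1.29 CPM in HFDHFB and 0.623, 0.548 and 0.259 CPM in LFDHFB, from at most 53 reads. Jund and Batf (2 of 9) did not overlap, both higher in HFDHFB, against 11.0% of all genes (7.47% higher). By edgeR 0 of 9 and 0 of 15893 genes (0.0%) passed, 2 of 9 and 7.46% of all had an unadjusted p below 0.05 (Fos with a negative estimate, like 2.21% of all, and Jund with a positive one, like 5.25%), and DESeq2 called 0 of 9 and 126 of all genes.

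Cell type markers also separated HFDHFB from LFDHFB. The summed level of 8 absorptive colonocyte genes was 9765 to 12348 CPM in HFDHFB and 13798 to 17218 CPM in LFDHFB. The goblet genes Spink4 and Spdef were higher in every HFDHFB library (log2 fold changes 0.84 and 0.63), and the leukocyte gene Ptprc was lower (-0.53). All 8 smooth muscle markers had positive estimates with a median of 0.50, but their summed levels overlapped. Their part in the values of Jund, Batf and Fos was not tested.

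The comparison of HFDLFB with LFDLFB had the most members with an unadjusted p below 0.05. Fos had 87.0, 77.2 and 73.4 CPM in HFDLFB and 118, 124 and 163 CPM in LFDLFB, a log2 fold change of -0.77 (SE 0.22, adjusted p = 0.881, edgeR). Junb had 84.2, 84.3 and 101 CPM in HFDLFB and 147, 110 and 161 CPM in LFDLFB, a log2 fold change of -0.63 (SE 0.16). Neither gene overlapped between the diets. Fosb (0.896 to 2.44 CPM against 2.65 to 8.09 CPM) and Jund (198 to 249 CPM against 275 to 354 CPM) did not overlap either, with log2 fold changes of -1.72 (SE 0.66) and -0.48 (SE 0.17). Jun, the main partner of FOS, had 103, 70.2 and 76.6 CPM in HFDLFB and 92.1, 123 and 124 CPM in LFDLFB and overlapped by 1 library.

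Thus 4 of 9 genes were lower in every HFDLFB library, where 6.62% of all genes were (11.7% did not overlap in either direction), and 8 of 9 estimates lay below 0 with a median of -0.63, against 0.00 over all genes. Unadjusted p was below 0.05 for 5 of 9 (Fos, Fosb, Jun, Junb and Jund, all with negative estimates) and for 5.33% of all genes (1.76% negative). None of this passed correction: edgeR passed 0 of 9 and 0 of 15893 genes (0.0%), and DESeq2 called 0 of 9 and 9 of all genes. Atf3, which encodes a stress repressor, had 42.8, 28.6 and 22.2 CPM against 42.0, 71.5 and 46.8 CPM and overlapped. Fosl1 depended on LFDLFB library 2 (2.54 CPM, against 0.304 and 0.526 in the other two), since its log2 fold change of -1.49 came to -0.05 without it. The 9 genes are not independent of each other, and every comparison here shares a group with another, so these counts do not add up as evidence.

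Adipocyte and mesothelial genes lay the other way in this comparison. All 8 adipocyte markers had positive estimates with a median log2 fold change of 3.21, and 7 of 8 mesothelial markers did, with a median of 1.54. The defining fat marker Adipoq had 47.9 to 426 CPM in HFDLFB and 5.54 to 29.2 CPM in LFDLFB, and the mesothelial marker Msln 18.0 to 115 CPM and 12.4 to 40.1 CPM. All 8 epithelial markers had negative estimates with a median of -0.20. HFDLFB library 3, whose mesothelial sum of 238 CPM lay within the range of LFDLFB but whose adipocyte sum of 529 CPM lay above every LFDLFB library (257 to 431 CPM), had 73.4 CPM of Fos, 0.896 CPM of Fosb and 228 CPM of Jund, all below every LFDLFB library. Its Junb of 101 CPM was also below every LFDLFB library. The part of these tissues in the values was not tested.

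**Figure D2:**
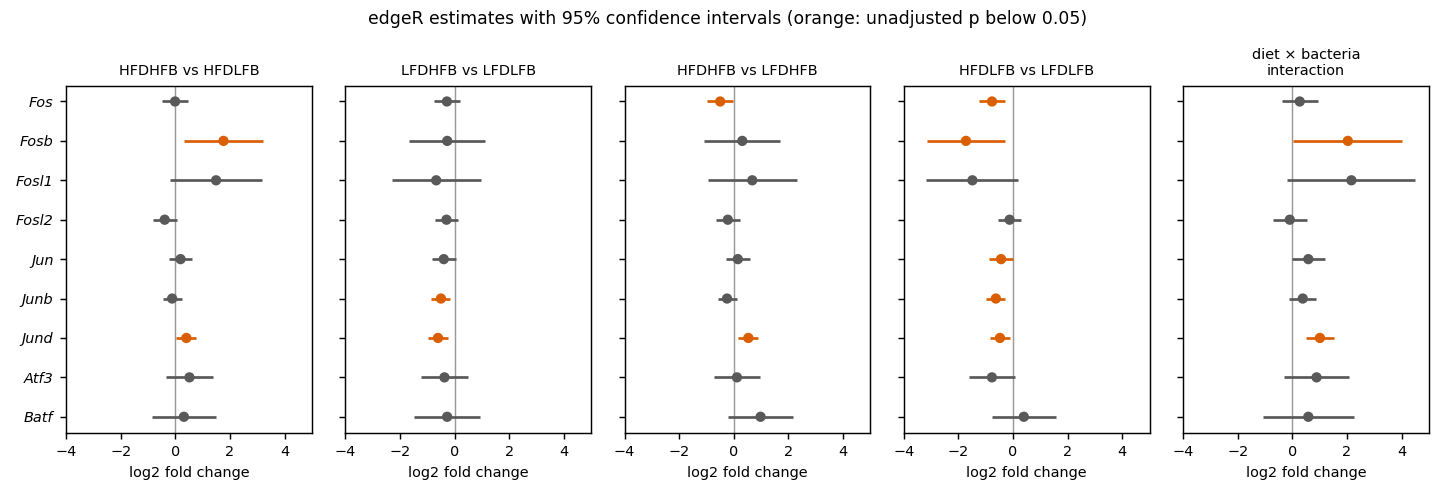
Log2 fold change (horizontal axis) with its 95% confidence interval for each of the 9 genes in the 4 group comparisons and in the interaction of diet and bacteria (edgeR, n = 3 per group); orange marks an unadjusted p below 0.05. The estimate for Jund was 0.40 on HFD and -0.61 on LFD, while the intervals of Fosl1 and Fosb were the widest.

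The difference between the donor effects on the 2 diets was tested as an interaction. For Jund it was 1.01 on the log2 scale (SE 0.24, 95% interval 0.49 to 1.53), with an unadjusted p of 0.00123 in edgeR and an adjusted p of 0.386, a value tied with other genes such as Ier2 and Spink4. By unadjusted p Jund ranked 30 of 15893. DESeq2 gave 0.99 with an adjusted p of 0.0411 and called 1 of 9 and 72 of all genes, while edgeR called 0 of 9 and 0 of 15893 (0.0%). Without any 1 library the edgeR estimate for Jund was 0.87 to 1.11 with an unadjusted p of 0.000853 to 0.00386. Fosb had an interaction of 2.03 (SE 0.91) and an unadjusted p of 0.0463 in edgeR, and its lowest estimate with 1 library left out was 1.23. Estimates were above 0 for 8 of 9 genes, all but Fosl2, with a median of 0.59 against -0.05 over all genes, and 2 of 9 (Fosb and Jund, both positive) had an unadjusted p below 0.05, against 11.3% of all genes (6.34% positive). Jund was thus high in the 2 groups whose donor and recipient diets matched and low in the 2 others, by edgeR short of the corrected threshold.

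Markers of several cell types had interactions as well. All 7 measured goblet markers had positive estimates, of which 4 had an unadjusted p below 0.05: Spink4 (1.43), Muc2 (1.60), Spdef (1.01) and Agr2 (0.90). Of 8 mesothelial markers 7 had negative estimates with an unadjusted p below 0.05, with a list median of -1.87, and of 8 adipocyte markers 6 had, with a list median of -4.38. Over all genes 11.3% had an unadjusted p below 0.05 for the interaction by edgeR. The leukocyte marker Ptprc had -1.02. Their part in the interaction of Jund and Fosb was not tested.

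Genes that respond with AP-1 were counted in the same fit. Of 30 other immediate early and stress response genes, none passed an adjusted p of 0.05 in any comparison by edgeR (lowest 0.386). In HFDLFB against LFDLFB, 5 of 30 estimates lay above 0 with a median log2 fold change of -0.20 against 0.00 over all genes. The 4 with an unadjusted p below 0.05 all had negative estimates: Ier2 (-0.54), Zfp36 (-0.44), Trib1 (-0.75) and Myc (-0.78). Over all genes 5.33% had such a p by edgeR (1.76% negative). Zfp36, which encodes an mRNA decay factor, also had a negative estimate in HFDHFB against LFDHFB (-0.49). Ier2 lay with Jund on HFD, with a log2 fold change of 0.43 in HFDHFB against HFDLFB and an interaction of 0.73 (SE 0.24). The other 2 comparisons had 16 of 30 (HFDHFB against HFDLFB) and 13 of 30 (LFDHFB against LFDLFB) estimates above 0.

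Among 37 kinases and factors upstream of AP-1, Hras had a log2 fold change of 0.42 in HFDHFB against LFDHFB (adjusted p = 0.377, edgeR) and 0.29 against HFDLFB, while the JNK gene Mapk8 had -0.32 in the former. Medians of this list lay between -0.07 and 0.00 in the 4 group comparisons. Of 28 genes with known AP-1 control, 26 were tested. The matrix protease Mmp7 had log2 fold changes of 2.97 (SE 1.04) in LFDHFB against LFDLFB and 2.34 (SE 1.02) in HFDLFB against LFDLFB. The cyclin gene Ccnd1 had 0.61 in HFDHFB against HFDLFB, where it was higher in every HFDHFB library, and -0.46 in HFDLFB against LFDLFB. The integrin gene Itga5 (0.73) and the protease gene Mmp14 (0.54) also had positive estimates in HFDHFB against HFDLFB. With Ccnd1 these were the 3 of 26 genes with an unadjusted p below 0.05 there by edgeR, against 9.07% of all genes. Over the whole list 10 of 26 estimates lay above 0 in that comparison, with a median of -0.07. The EGF receptor ligand gene Hbegf had -0.70 in HFDLFB against LFDLFB. In that comparison the list had 4 positive and 2 negative estimates at an unadjusted p below 0.05 (edgeR), against 5.33% of all genes. Spp1 and Timp1 had log2 fold changes of 1.85 (SE 0.69) and 1.30 (SE 0.56) there. Both are also produced by fat, serosal and connective tissue, whose part in these values was not tested.

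Heat shock and other stress genes were counted likewise. All 12 heat shock genes had estimates above 0 in HFDHFB against HFDLFB and in HFDHFB against LFDHFB, with medians of 0.18 in both. In each, 2 of 12 had an unadjusted p below 0.05 by edgeR (Bag3 and Hspa1b, then Bag3 and Hspe1). Over all genes 9.07% and 7.46% had. Both comparisons use the same HFDHFB libraries. The summed level of the 12 overlapped, at 2407 to 2777 CPM in HFDHFB, 1945 to 2683 CPM in HFDLFB and 2147 to 2593 CPM in LFDHFB. Of 33 other basic leucine zipper genes, Atf4 had a log2 fold change of 0.41 in HFDHFB against HFDLFB, and Atf7, Tef and Creb5 had -0.27, -0.33 and -0.81. Targets of ATF4 and CHOP, which act upstream of Atf3 in the integrated stress response, had 3 of 14 estimates above 0 there, with a median of -0.14. The 2 with an unadjusted p below 0.05 were Phgdh (-1.37, SE 0.59), of serine synthesis, and Chac1 (-1.16, SE 0.51), of glutathione breakdown, and both overlapped between the groups. In HFDLFB against LFDLFB the serine synthesis gene Psat1 had 0.98 (SE 0.40) and Creb5 0.82 (SE 0.34). None of these passed an adjusted p of 0.05 by edgeR.

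The spread within groups had its own pattern. Pearson's r of log2 CPM over the 12 libraries was 0.88 between Fosb and Atf3 and 0.82 between Fosb and Fosl1, and r of the deviations from the group means was 0.89 and 0.75. The same libraries, HFDHFB 1, LFDHFB 1 and LFDLFB 2, were the highest of their groups in Fosb and Atf3: Fosb had 9.87, 7.63 and 8.09 CPM there and Atf3 had 63.5, 55.7 and 71.5 CPM. Fosl2 and Junb formed another pair with r of 0.75 over the libraries and 0.84 of the deviations, and Junb and Jund had 0.49 and 0.75. Junb and Fosl1 went opposite ways within groups (r of the deviations -0.75). These are descriptions over 12 libraries that share tissue and preparation.

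Outside the family, the genes most like each member over the 12 libraries differed between members. They were picked as the highest of all tested genes over only 12 libraries, so the picking itself raises r, and no test was run. Those of Fosl1 and Batf also rest on few reads. For Fosb the closest was Hbegf (r = 0.87), followed by Psme3 and Elavl1 (0.86 and 0.85), and for Fosl1 they were Hoxa2 (0.90) and the immediate early receptor gene Nr4a1 (0.89), then Agbl2 (0.88). Fosl2 had the highest values, with Klf3 (0.96), Rnf216 (0.95) and Efna1 (0.94). Fos was most like Abr (0.87), Gm4925 (0.85) and Gbp2b (0.83), and Jun like Cldn23 (0.88), Cystm1 (0.86) and Clstn1 (0.84). Junb was most like Ndor1 (0.91), Ppp6r1 (0.91) and Vps18 (0.90). Jund was most like the chromatin factor genes Ino80b (0.93) and Sin3b (0.92), then Mrps23 (0.92). Atf3 was most like Gprc5a (0.92), Baiap2 (0.90) and Rps6kb2 (0.90), and Batf like Scimp (0.93), an adaptor gene of antigen-presenting cells, Nr2f1 (0.92) and Gpsm3 (0.85).

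**Figure D3:**
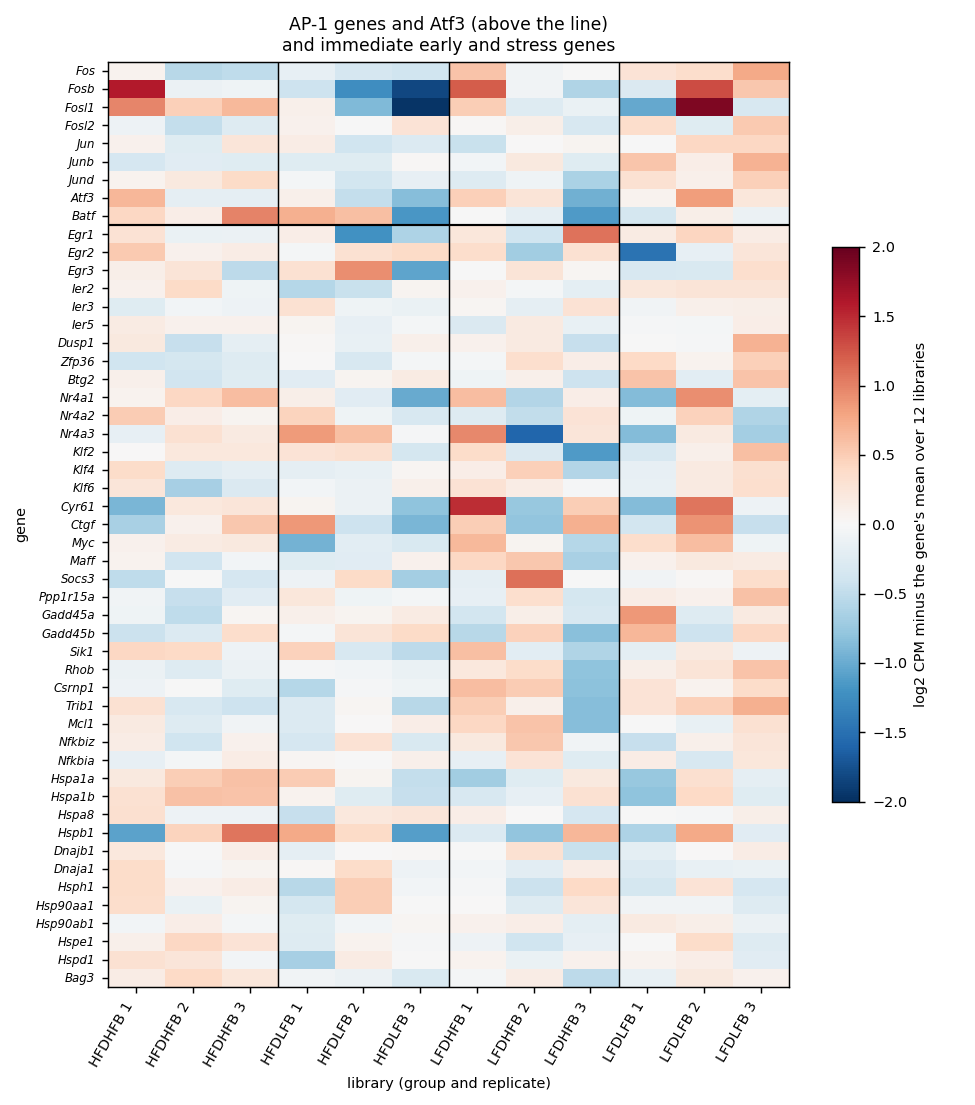
Log2 CPM minus the mean of the gene over 12 libraries (colour scale), with 1 column per library. The 9 genes stand above the line, and the other immediate early, stress response and heat shock genes below it. Fosb, Fosl1 and Atf3 are high together in HFDHFB 1, LFDHFB 1 and LFDLFB 2 and lowest or near lowest in HFDLFB 3.

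The chromatin of the 9 loci was then examined. Every H3K27ac library (23) and every H3K4me1 library (12) held peaks in all 9 windows. Of all windows, 58.3% had an H3K27ac peak in every long-term library, 57.7% in every recipient library and 69.6% an H3K4me1 peak in every library. These shares are over all 25494 genes, including those with too few reads to be tested, whereas all 9 members were tested. Over the 12 libraries of mice on the long-term diets, the share of the window under H3K27ac peaks was highest at Junb (median 87.7%, range 79.9 to 94.5%), followed by Fos (61.1%), Jund (44.5%), Jun (40.1%), Fosl2 (39.2%), Atf3 (37.9%), Fosl1 (37.5%) and Fosb (33.3%). Batf was apart with 3.54% (range 2.36 to 6.14%), below the median of 4.75% over all 25494 genes. The windows of Junb, Fosb, Fosl1 and Atf3 also hold other genes (Prdx2 at Junb, Rtn2 at Fosb), whose peaks are counted with them.

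A peak of H3K27ac lay over the gene start in all 12 long-term libraries for 8 of 9 genes, against 39.8% of all 25494 genes, tested for RNA or not. In the 11 recipient libraries this held for 7 of 9, because 1 library had none over the start of Atf3, against 38.7% of all genes. No library of any of the 3 kinds had a peak over the start of Batf. The peak over the start was broad at Junb, with a median width of 18.2 kb in the long-term libraries, and narrower at Fosl2 (12.8 kb), Jund (9.5 kb), Atf3 (9.0 kb), Jun (8.2 kb), Fos (7.4 kb), Fosb (3.4 kb) and Fosl1 (2.7 kb). Fosb and Fosl1, whose RNA in the recipients was lowest of these 8, had the narrowest peaks in these long-term libraries.

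H3K4me1 lay over the start in all 12 libraries at 1 of 9 genes, Jund, which is near the 14.6% of all genes. Fosl1 had such a peak in 11 libraries, Atf3 in 5, Junb in 4, Fos in 2, Fosb in 1 and Fosl2, Jun and Batf in 0. At Jun the marked regions ended on both sides of the start, and at Fosl2 one ended before it and the next began 0.956 kb after it. Merged over libraries, the 9 windows held 28 H3K27ac regions, of which 14 were in every library, and 30 H3K4me1 regions, of which 27 were. In the window of Batf, the H3K27ac region found in every library began 16.9 kb after the start, and H3K4me1 regions began 8.13 and 17.5 kb after it.

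**Figure D4:**
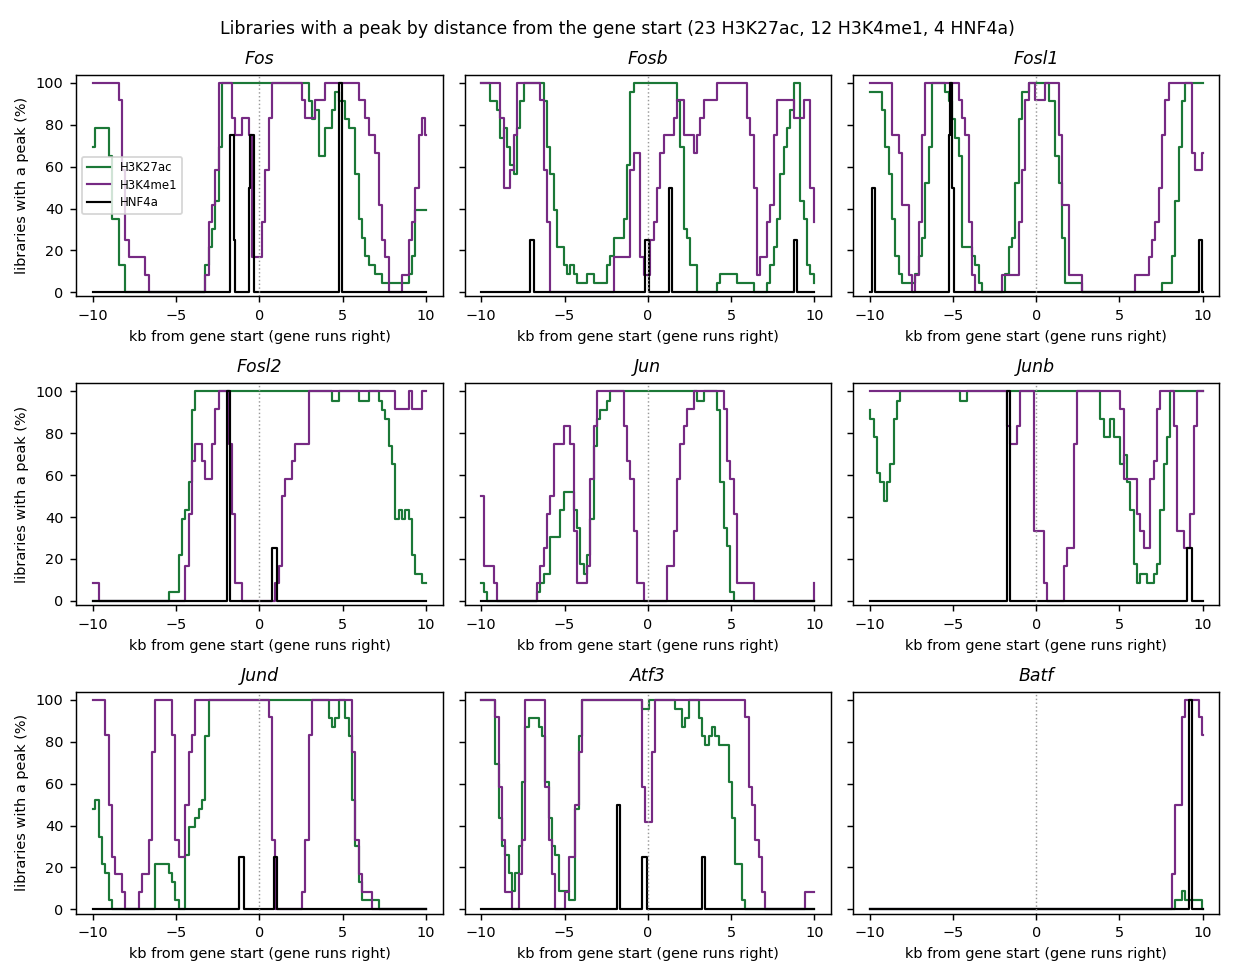
Share of libraries with a peak (vertical axis, %) by distance from the gene start (horizontal axis, kb, the gene running to the right) for H3K27ac (23 libraries), H3K4me1 (12) and HNF4a (4). H3K27ac covers the start in all libraries for 7 genes and in all but 1 for Atf3, H3K4me1 covers the start in all 12 libraries at Jund only, and Batf has no peak at its start.

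To test whether diet moved these marks, the base pairs of each window under peaks were compared between diets within each sex. With 3 libraries against 3 the smallest p of an exact two-sided permutation test is 0.1, so no single window can pass 0.05. Junb, whose window was nearly filled, had 19040, 20040 and 19840 bp under H3K27ac in HFD males and 19240, 19047 and 17447 bp in LFD males, which overlapped. In females it had 19247, 20647 and 19240 bp on HFD and 18240, 18847 and 19047 bp on LFD, which did not overlap (exact permutation p = 0.1). The nearest of these, 19240 and 19047 bp, were apart by less than the 200 bp bin of the peak caller. Over the gene locus alone the female difference was 0.0 bp. Libraries did not overlap at 0 of 9 genes in males, against 5.41% of all windows, and at 1 of 9 (Junb, higher on HFD) in females, against 12.5% (11.6% higher).

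Permuting the diets within each sex gave a mean difference at Junb of 1031 bp (HFD minus LFD, exact permutation p = 0.025, adjusted p = 1.0 over all windows). No window passed an adjusted p of 0.05 for either mark, while 4.15% of windows for H3K27ac and 3.42% for H3K4me1 had an unadjusted p below 0.05. With 400 permutations, an adjusted p below 0.05 would need many windows at the smallest p, so it could not decide about single windows. No member was without overlap in the same direction in both sexes, which held for 0.335% of all windows for H3K27ac and 0.295% for H3K4me1. The other 8 genes had exact permutation p-values of 0.285 to 0.795 for H3K27ac.

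At Junb the H3K4me1 difference between diets had opposite signs in the sexes over this window. With an extension of 5 kb the signs were also opposite, at -1064 bp in males and 800 bp in females. Over the gene locus alone they were not, at -149.0 bp in males and -87.0 bp in females, and the males overlapped. HFD males had 16047, 17040 and 16640 bp under peaks and LFD males 17840, 18840 and 18240 bp. HFD females had 18040, 17840 and 17647 bp and LFD females 17640, 17640 and 17440 bp. The diets did not overlap in either sex, with HFD minus LFD at -1731 bp in males and 269 bp in females, but the female groups were apart by 7 bp where the peak caller works in bins of 200 bp. The difference between the sexes was -2000 bp (exact permutation p = 0.005, the smallest its 400 permutations allow, adjusted p = 1.0 over all windows). Batf, in HFD and LFD females, had 6800, 7200 and 6400 bp against 3800, 3200 and 5800 bp, and overlapped in males. Not overlapping were thus 1 of 9 genes in males (lower on HFD), against 7.77% of all windows (5.2% lower), and 2 of 9 in females (both higher), against 8.67% (6.08% higher).

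In the recipients, H3K27ac at Junb and Atf3 was compared across donors and diets. At Atf3, the 2 HFDHFB libraries had 13012 and 12612 bp under peaks, above all libraries of HFDLFB (11212, 10812 and 11212 bp) and of LFDHFB (10812, 10812 and 11612 bp). At Junb, the HFDHFB libraries (17447 and 17847 bp) lay below the HFDLFB libraries (18647, 19047 and 19440 bp), which in turn lay above the LFDLFB libraries (18047, 17393 and 15400 bp). At Fos, HFDHFB had 11019 and 12619 bp and LFDHFB 9619, 9619 and 10619 bp, a difference that turned to -109.5 bp over the gene locus alone. The exact permutation p was 0.1 in each, the smallest these groups allow.

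Not overlapping were 2 of 9 genes in HFDHFB against HFDLFB (Atf3 higher, Junb lower), where 13.4% of all windows did not (5.95% higher, 7.45% lower), and 0 of 9 in LFDHFB against LFDLFB, where 6.85% did not. The diets did not overlap at 2 of 9 genes with HFB (Fos and Atf3, both higher in HFDHFB), against 23.7% of windows, and at 1 of 9 with LFB (Junb, higher in HFDLFB), against 14.3% (13.1% higher). HFDHFB library 2 had the longest list, 51873 peaks, and the share of all windows that were higher in HFDHFB than in LFDHFB was 21.5%. The RNA of Junb lay opposite to its H3K27ac in the last comparison (84.2 to 101 CPM in HFDLFB, 110 to 161 CPM in LFDLFB). Atf3 RNA overlapped in both comparisons in which its H3K27ac did not. RNA was from scraped colon tissue and H3K27ac from isolated epithelial cells, so they were not measured in the same material. Jund overlapped in H3K27ac in all 4 recipient comparisons, with 8200 to 11763 bp under peaks.

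**Figure D5:**
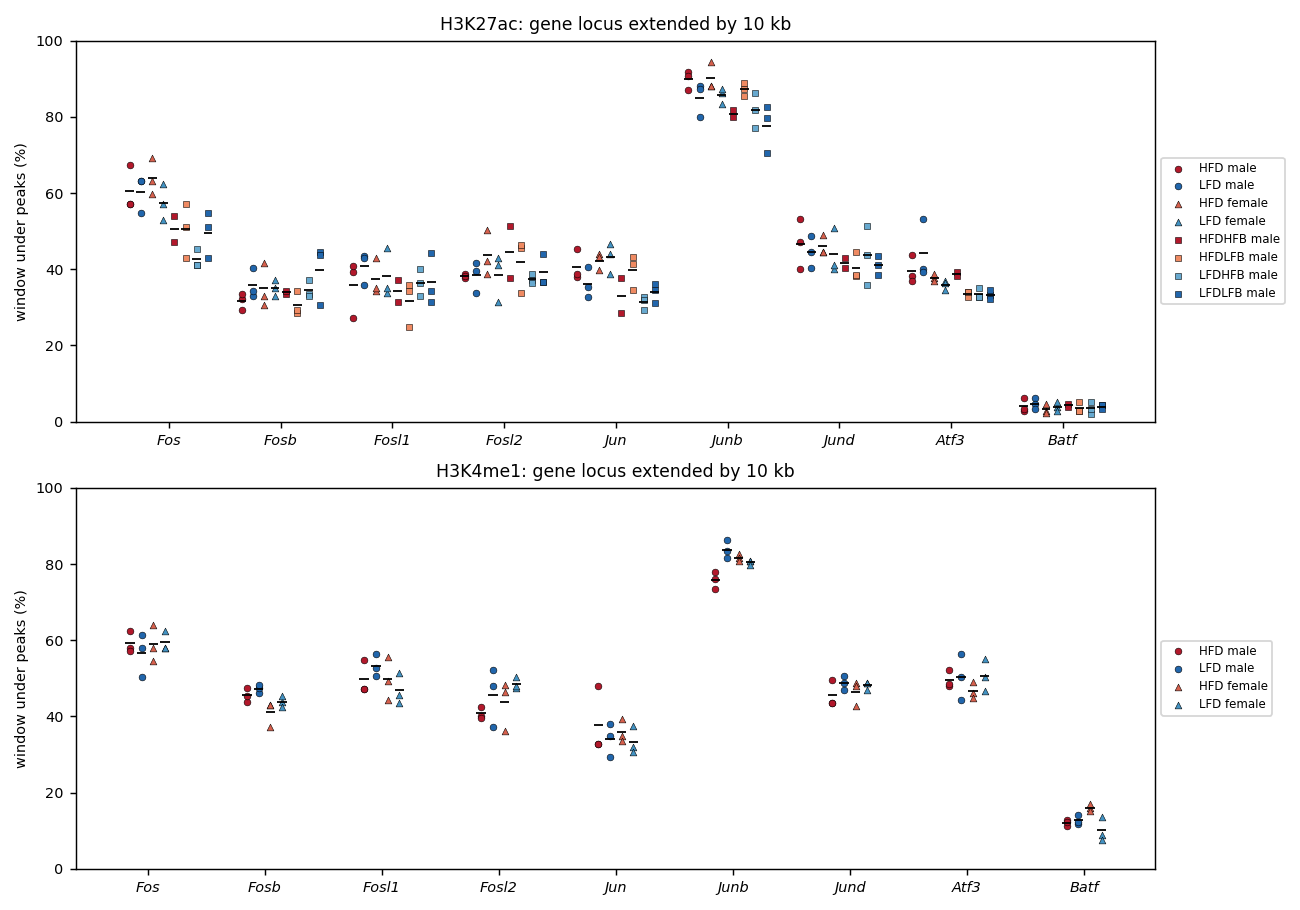
Share of each window (gene locus extended by 10 kb) under peaks, in % (vertical axis), with 1 point per library, for H3K27ac in both experiments and H3K4me1 in mice on the long-term diets; colours and markers give diet, sex and donor. Junb lies at 70.5 to 94.5% for H3K27ac in every library and Batf at 1.89 to 6.14%.

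HNF4a, a nuclear receptor that maintains enterocyte genes, had peaks within 8 of the 9 windows and none in that of Jun in the 4 libraries. A peak was present in every library for 6 of 9 windows, against 26.5% of all windows. Merged over libraries there were 24 sites, of which 6 were in all 4 libraries and 12 in 1 only. Counted from the gene start, the 6 shared sites lay at 4.71 kb at Fos, -4.98 kb at Fosl1, -1.74 kb at Fosl2, -1.55 kb at Junb, 12.6 kb at Atf3, in an untranslated region of its last exon, and 9.11 kb at Batf, in an intron. Those of Fos, Fosl1, Fosl2 and Junb were intergenic. Batf thus had an HNF4a site and H3K4me1 within the gene although no mark covered its start.

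The HNF4 site CAAAGNNCA, searched on both strands in the central 240 bases, stood in 4 of the 6 (Fos, Fosl2, Atf3 and Batf) and in 38.7% of 8494 regions found in all 4 libraries. The AP-1 site TGANTCA stood in 0 of 6 and in 18.6% of those regions. The sites of Fos, Fosl2 and Batf are printed for the match they carry, and that of Junb as one without it, in build mm9 on the plus strand; capitals mark CAAAGNNCA on either strand.
Fos HNF4a site, chr12:86819573-86819812: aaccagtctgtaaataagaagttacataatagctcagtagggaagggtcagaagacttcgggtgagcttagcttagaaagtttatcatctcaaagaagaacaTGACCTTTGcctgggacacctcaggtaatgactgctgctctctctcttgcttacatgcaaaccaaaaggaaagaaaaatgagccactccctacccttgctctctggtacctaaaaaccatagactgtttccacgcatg
Fosl2 HNF4a site, chr5:32436859-32437098: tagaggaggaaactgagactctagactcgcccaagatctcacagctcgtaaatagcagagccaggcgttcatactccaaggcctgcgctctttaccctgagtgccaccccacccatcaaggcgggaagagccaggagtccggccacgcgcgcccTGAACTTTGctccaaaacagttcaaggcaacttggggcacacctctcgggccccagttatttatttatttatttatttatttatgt
Batf HNF4a site, chr12:87036786-87037025: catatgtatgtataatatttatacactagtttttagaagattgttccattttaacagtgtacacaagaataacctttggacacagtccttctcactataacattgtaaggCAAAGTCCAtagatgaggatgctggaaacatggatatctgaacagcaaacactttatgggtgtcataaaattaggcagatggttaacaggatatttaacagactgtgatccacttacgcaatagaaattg
Junb HNF4a site, chr8:87504201-87504440: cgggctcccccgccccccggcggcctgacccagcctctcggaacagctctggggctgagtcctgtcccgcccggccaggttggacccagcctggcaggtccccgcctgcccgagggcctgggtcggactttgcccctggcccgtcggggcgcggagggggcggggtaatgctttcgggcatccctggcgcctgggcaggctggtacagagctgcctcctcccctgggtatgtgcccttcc

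Diet comparisons of HNF4a rest on 2 libraries each, and the smallest exact permutation p is 0.333. A site at -9.63 kb from the start of Fosl1 was in both HFD libraries and in neither LFD library, and a site at -1.66 kb from that of Atf3 was in both LFD libraries and in neither HFD library. Jund had 2 sites, both in LFD library 1 only. Each list held peaks of 1 fixed width (240 and 242 bp on HFD, 230 and 220 bp on LFD), so that bp covered is higher on HFD for any window with equal peak numbers. By bp covered, Fosl1, Atf3 and Batf (3 of 9) did not overlap, all higher on HFD, against 30.5% of all windows (22.4% higher), and by number of peaks only Fosl1 did not.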

How the data were processed

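Per the submitters' processing notes, reads were aligned to mm9 with Bowtie 0.12.8 (ChIP-seq) and STAR 2.5 (RNA-seq), duplicates were handled with Picard 1.110, peaks were called with SICER or HOMER, and gene reads were counted with featureCounts 1.5.0-p1. The authors deposited raw counts per gene in 1 table (12 libraries, no normalization) and 1 peak list per ChIP library (39 lists); the scores and fold values in the deposited peak lists were not used. The 9 genes and all gene lists were chosen with earlier results of these data known.

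Counts were tested with edgeR 4.0.16 in R 4.3.3 (TMM, filterByExpr, quasi-likelihood test, 4 groups in 1 fit, Benjamini-Hochberg over 15893 genes, called at 0.05). The test was tried first on simulated data. DESeq2 1.42.0, other filters, size factors and left-out libraries were alternatives. CPM used TMM library sizes. Total counts of 39904191 to 48026846 per library make counting error small next to the spread between libraries, except for Fosl1 and Batf.

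For peaks, the bp of the gene locus extended by 10 kb under peaks were counted per library (Python 3.11.15) and compared by exact permutation. Groups are said not to overlap where every library of one lies above every library of the other. Of 1989023 peaks, 0 passed a chromosome end of the mm9 reference. Peak lists give no reads, so depth behind a peak is unknown. The input libraries were not analysed here. The genes named besides the 9 are the 3 most correlated with each and, per list, at most 6 with the smallest unadjusted p below 0.05, a rule widened after none passed the adjusted p. One gene of the lists is not reported here.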

Additional observations from a re-analysis of the deposited data

Results flagged for a closer look

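Jund was noted because its donor effects had opposite signs on the 2 diets, and its diet effects opposite signs with the 2 donors. Its log2 fold change was 0.40 in HFDHFB against HFDLFB and -0.61 in LFDHFB against LFDLFB, and 0.53 in HFDHFB against LFDHFB and -0.48 in HFDLFB against LFDLFB, without overlap of the libraries in any of the 4. The interaction had an adjusted p of 0.386 in edgeR and 0.0411 in DESeq2. These comparisons share groups and are 1 pattern seen from both sides.

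Junb was noted for H3K4me1, where HFD minus LFD was -1731.0 bp in males and 269.0 bp in females, without overlap in either sex. Over the gene locus alone it was -149.0 bp in males, where the diets then overlapped, and -87.0 bp in females. Extended by 5 kb it was -1064 bp in males and 800 bp in females, so the opposite signs held for both extended windows. The difference between the sexes had an exact permutation p of 0.005, the smallest its 400 permutations allow, and an adjusted p of 1.0 over all windows. All groups had 2 or 3 libraries, so no single library was tested as an outlier.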

How the results depend on the processing

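By edgeR, 0 genes were called in all 5 comparisons under every filter, scaling, replicate block and left-out library that was run. DESeq2 called 80 genes in HFDHFB against HFDLFB, 126 in HFDHFB against LFDHFB, 9 in HFDLFB against LFDLFB and 72 for the interaction, of which 1 was a member (Jund, 0.99). No replicate numbers were shown to pair the libraries: the correlation of same-numbered deviations ran from -0.59 to 0.45, and with the number as a block edgeR called 0 genes, with 1081 against 1441 genes at an unadjusted p below 0.05 in HFDHFB against HFDLFB.

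With 1 library left out, some estimates changed sign: Fos (-0.24 to 0.10), Batf (-0.10 to 0.63) in HFDHFB against HFDLFB; Fosb (-0.98 to 0.21), Fosl1 (-1.11 to 0.76) and Batf (-0.51 to 0.023) in LFDHFB against LFDLFB; Fosb (-0.50 to 1.02) and Atf3 (-0.23 to 0.39) in HFDHFB against LFDHFB; Fosl2 (-0.32 to 0.051) in HFDLFB against LFDLFB and (-0.29 to 0.11) for the interaction. The unadjusted p of Fosb in HFDHFB against HFDLFB then reached 0.154.

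Peak comparisons moved more, and apart from what is said below the cause was not tested. With the gene locus alone, 0 members did not overlap for H3K27ac in females and in HFDHFB against HFDLFB, and 0 for H3K4me1 in males; at Junb the H3K4me1 difference in females became -87.0 bp and at Fos the H3K27ac difference of HFDHFB against LFDHFB became -109.5 bp. The locus of Junb alone is short beside its H3K27ac peak, which left little room for a difference there. Extending by 5 kb gave 0 members for H3K27ac in females, HFDHFB against HFDLFB and HFDLFB against LFDLFB. Counting peaks gave 0 members for H3K27ac in females, H3K4me1 in males and females, HFDHFB against LFDHFB and HFDLFB against LFDLFB, and 1 for HNF4a and for HFDHFB against HFDLFB. Requiring 50% of a peak in the window gave 1 for H3K27ac in males, 0 in females and 0 for H3K4me1 in males. Removal of a library can only keep or add genes without overlap, so the counts that follow could not fall. Leaving out 1 library gave 0 to 2 members for H3K27ac in males, 1 to 3 in females, 0 to 1 in both sexes, 1 to 3 for H3K4me1 in males, 2 to 3 in females, 3 to 6 for HNF4a, 2 to 5 for HFDHFB against HFDLFB, 0 to 2 for LFDHFB against LFDLFB, 3 to 4 for HFDHFB against LFDHFB and 1 to 3 for HFDLFB against LFDLFB.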
